A study of Mus musculus with 30 samples.

Results

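Hearts of 1-week-old (1W) mice were compared with hearts of mouse fetuses at embryonic day 18.5 (E18.5) across all measured genes, with the hearts of postnatal day 1 (P1) left out of the comparison. The comparison used 6 of the 30 libraries of a series that followed the mouse heart over 10 ages with 3 libraries each. The members were chosen by age alone, so no measured value entered the choice. Both groups were labelled wild type, untreated and heart, and no agent or allele set them apart. RNA was extracted from heart tissue as total RNA, selected for poly(A) with oligo-T beads and sequenced as messenger RNA libraries. Nothing in the labels tells whether replicates were different animals or pools, or which chambers were taken. The p-values therefore measure the spread between replicate libraries, estimated over all 30 libraries of the series, which may be technical.

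Birth moves the heart from low oxygen, a supply of glucose and lactate through the placenta and the thick right ventricle of the fetal circulation to air breathing and a diet of milk fat. Over the same days cardiac muscle cells switch from dividing to growing, replace fetal isoforms of contractile proteins by adult ones and fill with mitochondria that burn fatty acids. A comparison of 1W with E18.5 reads what had changed once the days around birth were past, without the samples taken within a day of birth.

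The 3 libraries at 1W held 36687572, 41695120 and 45499578 counts, and the 3 at E18.5 held 25550572, 37783548 and 31311218 counts. Mitochondrially encoded genes took 7.78 to 8.47% of the counts at 1W and 3.54 to 4.42% at E18.5. Noncoding RNAs without a poly(A) tail, such as Rn7sk, Rpph1 and Rmrp, took 2.45 to 3.05% at 1W and 2.84 to 3.03% at E18.5. These were present despite the stated poly(A) selection, and how far that selection held was not tested. The heart label held in both groups, where the muscle gene Myh6 alone had 43296 ± 1547 CPM (the scaled unit of counts relative to library total) at 1W and 14386 ± 463 CPM at E18.5 (SD, n = 3 each). In each group 1 of the 3 libraries, 1W replicate 1 and E18.5 replicate 2, held Y-linked transcripts and no sign of the inactive X, and the other 2 libraries did not, so the mix was the same in both. In bulk tissue fewer cells of a type and less RNA per cell cannot be told apart.

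Of 48820 genes, 19280 had enough counts to be tested. At an adjusted p under 0.05 (edgeR quasi-likelihood F test, Benjamini-Hochberg), 7180 genes (37.2%) were called, 3685 (19.1%) higher and 3495 (18.1%) lower at 1W. Of these, 887 (4.6%) were at least 2-fold higher and 1103 (5.72%) at least 2-fold lower, 10.3% together. At least 16-fold changes were called for 38 genes upward and 67 downward. The libraries of the 2 ages did not overlap for 10626 genes (55.1%). The median log2 change over all genes tested was -0.04, and it was -0.26 when counts were scaled by library size alone, which left 1935 genes higher and 6560 lower. Below, levels are CPM in replicates 1, 2 and 3, changes are log2 of 1W over E18.5 with the standard error (SE) of the fit, and changes are relative to the trimmed-mean (TMM) scaling. Each count of list members called is to be read beside the shares over all genes, 19.1% higher and 18.1% lower. A list near those shares does not stand out from the other genes.

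**Figure D1:**
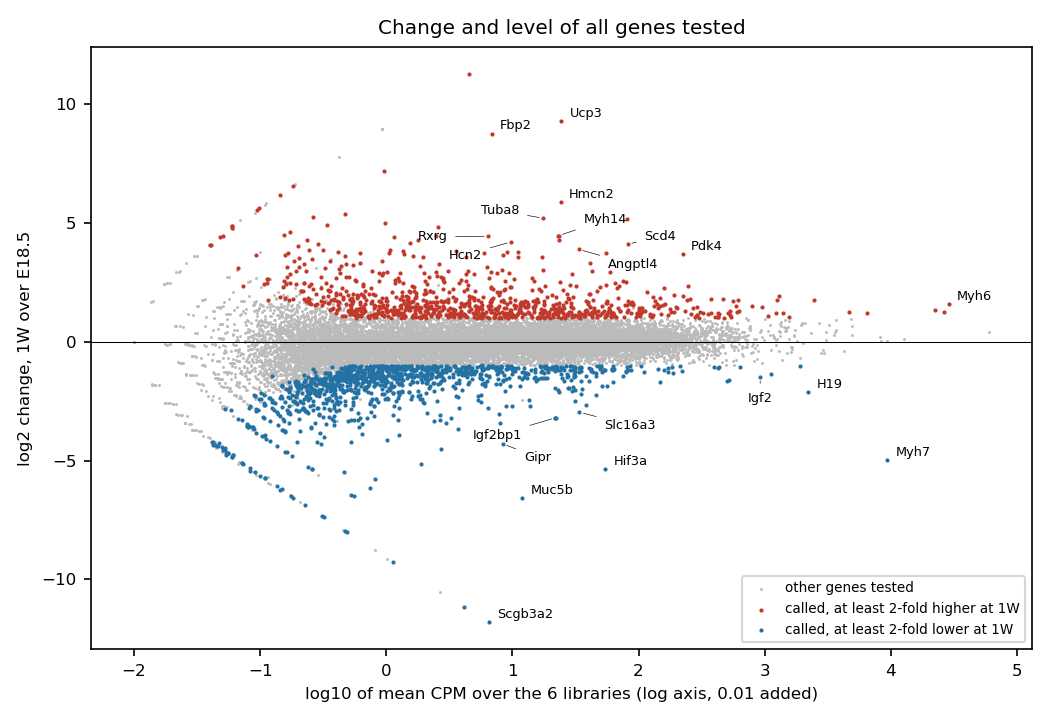
Each point is 1 of the 19280 genes tested, with the log10 of its mean CPM over the 6 libraries on the x axis and the log2 change of 1W over E18.5 on the y axis. Red points are the 887 called genes at least 2-fold higher at 1W, blue points the 1103 at least 2-fold lower, grey points the other genes, and Myh7 stands out as an abundant gene with a large fall.

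The myosin heavy chains of the heart changed in opposite directions. Myh6 encodes the fast alpha chain of the adult mouse ventricle and lies at chr14:54941921-54966927 in GRCm38. It had 41544, 44471 and 43875 CPM at 1W, against 14792, 13882 and 14483 CPM at E18.5, and its log2 change was 1.59 ± 0.11 (adjusted p = 3.42e-13). Myh7, the slow beta chain of the fetal ventricle, lies beside it at chr14:54970684-54994626. Its level was 836, 325 and 576 CPM at 1W, against 18932, 17656 and 18086 CPM at E18.5. That was a log2 change of -4.98 ± 0.25 (adjusted p = 1.56e-13), with no overlap, and the 3 libraries at 1W differed more, relative to their mean, than those at E18.5. The third gene of the family with a cardiac intronic microRNA, Myh7b, was not called, with 44.2, 37.6 and 43.3 CPM at 1W, against 29.7, 34.8 and 41.1 CPM at E18.5 (0.24 ± 0.13, adjusted p = 0.146). Without E18.5 replicate 3 it was called higher (0.37, adjusted p = 0.0437). Each of these genes carries a microRNA on its own strand, printed because the host transcripts of the first 2 moved apart while their microRNAs share a seed. The mature sequences (RefSeq, GRCm38.p6) have the seed, bases 2 to 8, in capitals.
mmu-miR-208a-3p in Myh6, chr14:54949072-54949093: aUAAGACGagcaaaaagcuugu
mmu-miR-208b-3p in Myh7, chr14:54975710-54975731: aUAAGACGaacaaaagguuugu
mmu-miR-499-5p in Myh7b, chr2:155622893-155622913: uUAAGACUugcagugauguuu
The libraries did not measure the microRNAs themselves. Reads of Myh6 and Myh7 can be confused, since the 2 genes are near copies and the counting method is not given in the sources used here.

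The 12 largest rises and falls were picked among called genes with at least 10 CPM and no overlap between the ages. Gene models and clone names were left out of that choice. The rises included several genes of lipid use. Ucp3, a mitochondrial uncoupling protein induced by fatty acids, had 56.01, 48.2 and 41.96 CPM at 1W, against 0.174, 0.0459 and 0.0282 CPM at E18.5 (9.28 ± 0.37, adjusted p = 5.72e-16). All 3 libraries at 1W were far above all 3 at E18.5, and without E18.5 replicate 1 the log2 change was 10.19. Fbp2, the muscle fructose bisphosphatase, had 12.4, 15.9 and 12.6 CPM at 1W, against 0, 0.0229 and 0.0564 CPM at E18.5. It rested on 1643 counts at 1W and 3 counts at E18.5, a ratio of 489 with a 95% exact interval of 167 to 2373 for counting error only, and leaving out E18.5 replicate 3 moved the fitted log2 change to 9.60. Plin5, which coats lipid droplets beside mitochondria, had 44.4, 49.6 and 39.8 CPM at 1W, against 2.58, 1.74 and 2.596 CPM at E18.5 (4.29 ± 0.18). Angptl4, a secreted inhibitor of lipoprotein lipase, had 70.1, 62.6 and 56.1 CPM at 1W, against 4.15, 4.59 and 4.01 CPM at E18.5 (3.88 ± 0.21). As the choice required, the libraries of the 2 ages did not overlap for any of these genes. The desaturase gene Scd4 rose by 4.10 ± 0.29 and the mitochondrial carrier gene Slc25a34 by 4.43 ± 0.21 on the log2 scale.

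The other large rises were of structural, signalling and channel genes. Hmcn2, an extracellular hemicentin, had 41.2, 56.8 and 44.9 CPM at 1W, against 0.662, 0.5504 and 1.24 CPM at E18.5 (5.87 ± 0.22, adjusted p = 1.01e-16). The alpha tubulin gene Tuba8 rose by 5.19 ± 0.27 and the non-muscle myosin gene Myh14 by 4.46 ± 0.22. Rxrg, a retinoid X receptor that pairs with other nuclear receptors, had 12.6, 13.8 and 10.5 CPM at 1W, against 0.523, 0.665 and 0.4798 CPM at E18.5 (4.44 ± 0.23). Hcn2, a pacemaker-type channel, had 17.96, 19.9 and 17.8 CPM at 1W, against 1.01, 1.26 and 0.706 CPM at E18.5 (4.201 ± 0.19). Every library at 1W exceeded every library at E18.5 for these 5 genes, as the choice required.

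Among the 12 largest falls, Hif3a stood next to Myh7. Hif3a encodes a hypoxia-inducible factor subunit that can oppose the others, and it had 2.15, 2.51 and 3.07 CPM at 1W, against 105, 101.9 and 113 CPM at E18.5 (-5.36 ± 0.27, adjusted p = 8.52e-13). Gipr, the receptor of the gut hormone GIP, had 0.6898, 0.855 and 0.873 CPM at 1W, against 13.8, 17.1 and 17.1 CPM at E18.5 (-4.30 ± 0.22). The levels at 1W were close together and far below those at E18.5 for both. Agtr2, the angiotensin receptor that predominates in fetal tissue, had 1.52, 1.89 and 1.59 CPM at 1W, against 11.8, 17.2 and 12.6 CPM at E18.5 (-3.06 ± 0.43). Slc16a3, the lactate exporter of glycolytic cells, had 7.202, 7.896 and 8.01 CPM at 1W, against 61.5, 61.3 and 58.0 CPM at E18.5 (-2.97 ± 0.14). The glutamate receptor gene Gria1 (-2.72 ± 0.17), the diacylglycerol kinase gene Dgkk (-2.79 ± 0.17) and the ankyrin repeat gene Ankrd63 (-3.43 ± 0.23) were also lower.

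Genes of the airway lining were also among the falls, and they followed single libraries at E18.5. Scgb3a2, a secretory protein of the airways, had no count at 1W and 11.8, 26.8 and 0.226 CPM at E18.5, which is at least 566-fold lower at 1W when 3 counts over the group are taken as the floor. Its call held without E18.5 replicate 2 at an adjusted p of 0.0305, with the fitted log2 change at -10.63. Muc5b, an airway mucin, had 0.248, 0.226 and 0.269 CPM at 1W, against 14.4, 56.1 and 0.706 CPM at E18.5 (-6.57 ± 1.91, adjusted p = 0.00979). Without E18.5 replicate 2 that fall was no longer called (-4.88, adjusted p = 0.0676), and neither was it in a fit of the 6 libraries alone (adjusted p = 0.0699). Both genes were high in E18.5 replicate 2, intermediate in replicate 1 and near the level of 1W in replicate 3. Of the 5 lung epithelium markers 3 were tested and none was called, although 1 was called lower when any single library at 1W, or E18.5 replicate 3, was left out. They had summed levels of 0.110 to 0.448 CPM at 1W and 0.423 to 2.64 CPM at E18.5. Sftpb was at 0 in every library at 1W. The part of lung tissue in these falls was not tested.

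**Figure D2:**
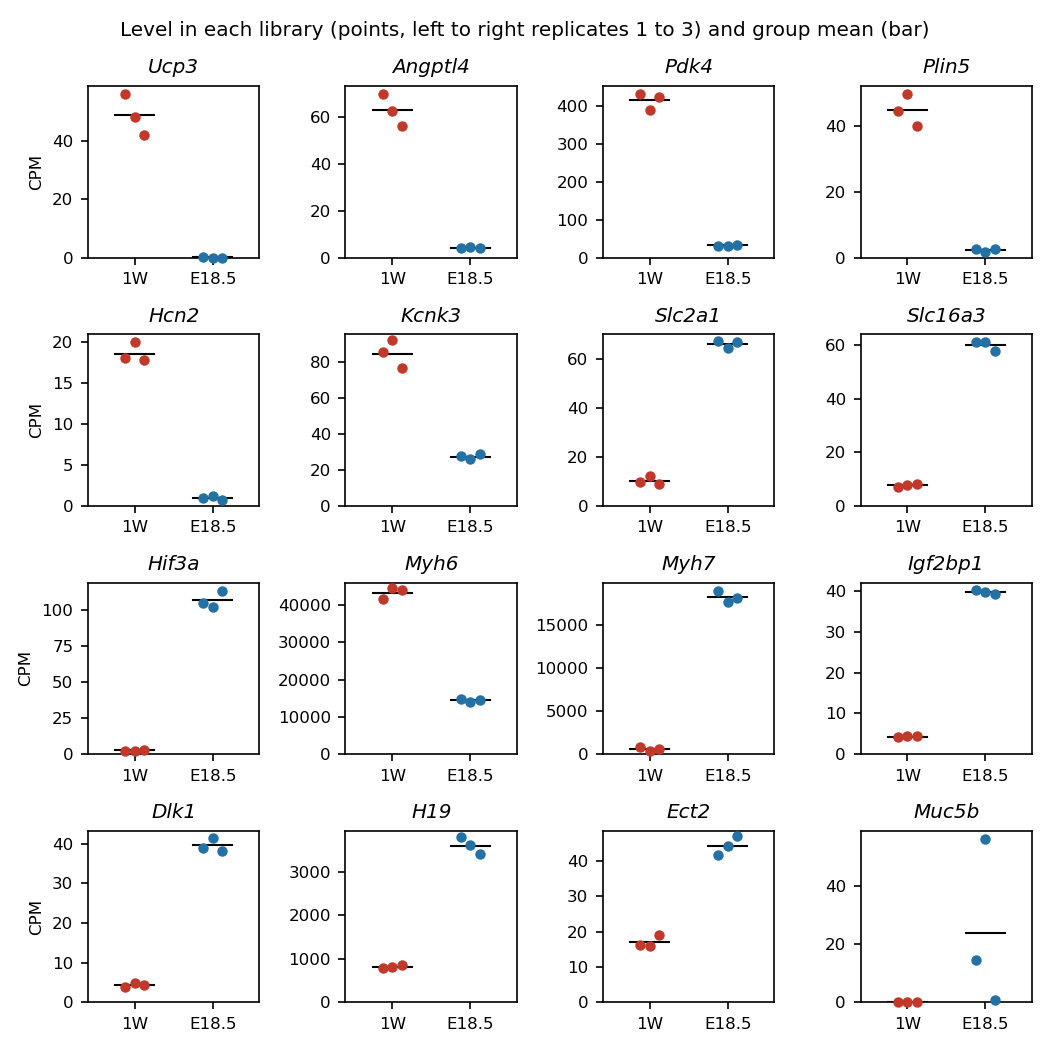
CPM of 16 genes in each library, with points for replicates 1 to 3 from left to right, 1W in red on the left and E18.5 in blue on the right, and a bar at the group mean. The groups do not overlap in any panel, a condition of the choice for the largest rises and falls. The 3 libraries of an age lie close together for most genes, and Muc5b shows the spread at E18.5 between 0.706 and 56.1 CPM.

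Fatty acid oxidation supplies most of the energy of the adult heart. Of 30 genes, most of them for the uptake, activation, mitochondrial import and beta oxidation of fatty acids, 29 rose and none fell. Their median log2 change was 1.27. The 29 included the uncoupling protein gene Ucp3 and Acacb, whose enzyme makes the malonyl-CoA that blocks import. The median over all genes was -0.04. Cd36, the sarcolemmal fatty acid transporter, had 873, 888 and 875 CPM at 1W, against 328, 297 and 312 CPM at E18.5 (1.49 ± 0.10). Slc27a1, a second transporter, had 53.7, 56.7 and 49.9 CPM at 1W, against 10.98, 11.1 and 9.09 CPM at E18.5 (2.36 ± 0.14). For both, every library at 1W was above every library at E18.5. The thioesterase gene Acot2 (2.27 ± 0.10) and Mlycd (2.14 ± 0.12), whose enzyme removes the malonyl-CoA that blocks import, also rose, as did Decr1 (1.85 ± 0.11), needed for unsaturated chains. Acadvl, the first dehydrogenase for long chains, had 736, 756 and 671 CPM at 1W, against 227, 201 and 199 CPM at E18.5 (1.79 ± 0.08). The 1 member not called was Echs1, a hydratase of short chains, with 124, 118 and 108 CPM at 1W, against 119, 117 and 111 CPM at E18.5.

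Genes of lipid uptake and droplet turnover rose with them, 15 of 17 higher and 1 lower, with a median log2 change of 1.28. Beside Plin5 and Angptl4, the hormone-sensitive lipase gene Lipe rose by 2.19 ± 0.12 and Dgat2, which makes triglyceride, by 2.01 ± 0.13. Lpl, the lipoprotein lipase, had 898, 930.02 and 818 CPM at 1W, against 356, 369 and 351 CPM at E18.5 (1.30 ± 0.10). The 1 member that fell was G0s2, an inhibitor of triglyceride lipase, with 12.6, 13.8 and 12.96 CPM at 1W, against 19.5, 20.8 and 23.2 CPM at E18.5 (-0.69 ± 0.19). Adipocyte markers moved in the same direction, 4 of 6 tested were higher, and their summed level was 32.5 to 39.5 CPM at 1W and 4.75 to 5.96 CPM at E18.5. Ucp1, which defines brown fat, had 7.67, 10.1 and 9.199 CPM at 1W and no count at E18.5, at least 324-fold higher against a floor of 3 counts over the group. The part of fat tissue in the lipid genes was not tested.

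Genes of glucose uptake and glycolysis went mostly the other way, 14 of 25 lower and 5 higher, with a median log2 change of -0.41. Slc2a1, the glucose transporter of fetal tissues, had 9.96, 12.4 and 8.82 CPM at 1W, against 67.3, 64.6 and 67.1 CPM at E18.5 (-2.68 ± 0.17). Slc2a4, the insulin-responsive transporter of adult muscle, had 86.6, 97.8 and 82.6 CPM at 1W, against 50.98, 49.7 and 46.8 CPM at E18.5 (0.86 ± 0.10). The 2 transporters thus moved in opposite directions, both without overlap. Aldoc (-2.71 ± 0.20) and Pgam1 (-1.71 ± 0.12), non-muscle forms of glycolytic enzymes, and the platelet-type phosphofructokinase Pfkp (-1.08 ± 0.10) fell. Pfkm, the muscle phosphofructokinase, rose to 583, 608 and 545 CPM at 1W, against 290.1, 284 and 268 CPM at E18.5 (1.04 ± 0.07). Ldha, the lactate dehydrogenase subunit of glycolytic tissue, fell (-0.74 ± 0.11).

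The kinases that switch off pyruvate dehydrogenase, and so the conversion of pyruvate to acetyl-CoA inside mitochondria, moved both ways. Of 13 genes of the complex and its regulators, 7 rose and 3 fell, or 4 and 3 with library size alone. Pdk4, induced by fasting and fat, had 432, 389 and 423 CPM at 1W, against 31.7, 30.9 and 34.1 CPM at E18.5 (3.69 ± 0.21, adjusted p = 1.67e-12). Pdk2 rose by 0.80 ± 0.08, while Pdk3 (-1.09 ± 0.08) and the hypoxia-induced Pdk1 (-0.57 ± 0.08) fell. Of 5 ketone body genes, 2 rose and 2 fell. Bdh1, which oxidises hydroxybutyrate, fell to 0.386, 0.478 and 0.649 CPM at 1W, against 4.57, 5.83 and 6.01 CPM at E18.5 (-3.41 ± 0.36). Oxct1, the enzyme that commits ketone bodies to oxidation, had 295, 264 and 312 CPM at 1W, against 424, 401 and 411 CPM at E18.5 (-0.51 ± 0.12). These 2 genes for the use of ketone bodies both fell.

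The tricarboxylic acid cycle list had 14 of 21 members higher and 1 lower, with a median log2 change of 0.30. Ogdh, a rate-setting dehydrogenase of the cycle, had 1872, 2087 and 1862 CPM at 1W, against 887, 852 and 809 CPM at E18.5 (1.19 ± 0.10). Pcx, which refills the cycle from pyruvate, fell to 7.39, 9.96 and 9.15 CPM at 1W, against 21.9, 22.5 and 20.2 CPM at E18.5 (-1.28 ± 0.19). Scaled by library size alone, 3 members were higher and 2 lower. Nuclear genes of complex I of the respiratory chain changed less and both ways, 11 of 35 higher and 3 lower, and with library size alone 1 was higher and 12 lower. Without 1W replicate 2, 6 were higher, and without 1W replicate 1 or 3 or E18.5 replicate 1 or 3 there was 1 lower. In complexes III to V, 8 of 35 were higher and 4 lower, against 3 higher and 11 lower with library size alone and 5 higher without 1W replicate 2. Among all genes tested 19.1% were called higher and 18.1% lower, so the rises in complexes III to V were near the general share. In a fit of the 6 libraries alone 18 genes of complex I were higher and 8 lower, and 18 and 10 of complexes III to V. Ndufv1, the subunit that accepts electrons from NADH, rose by 0.65 ± 0.10. The isoforms of cytochrome oxidase split, with Cox8b of heart muscle higher (0.67 ± 0.15) and the general forms Cox6a1 (-0.93 ± 0.17) and Cox8a (-0.80 ± 0.14) lower. Of the 13 proteins encoded in mitochondrial DNA, 6 rose and none fell, with a median of 1.00. The most abundant, mt-Co1, had 31501, 32176 and 32947 CPM at 1W, against 12701, 11928 and 13644 CPM at E18.5 (1.34 ± 0.09).

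**Figure D3:**
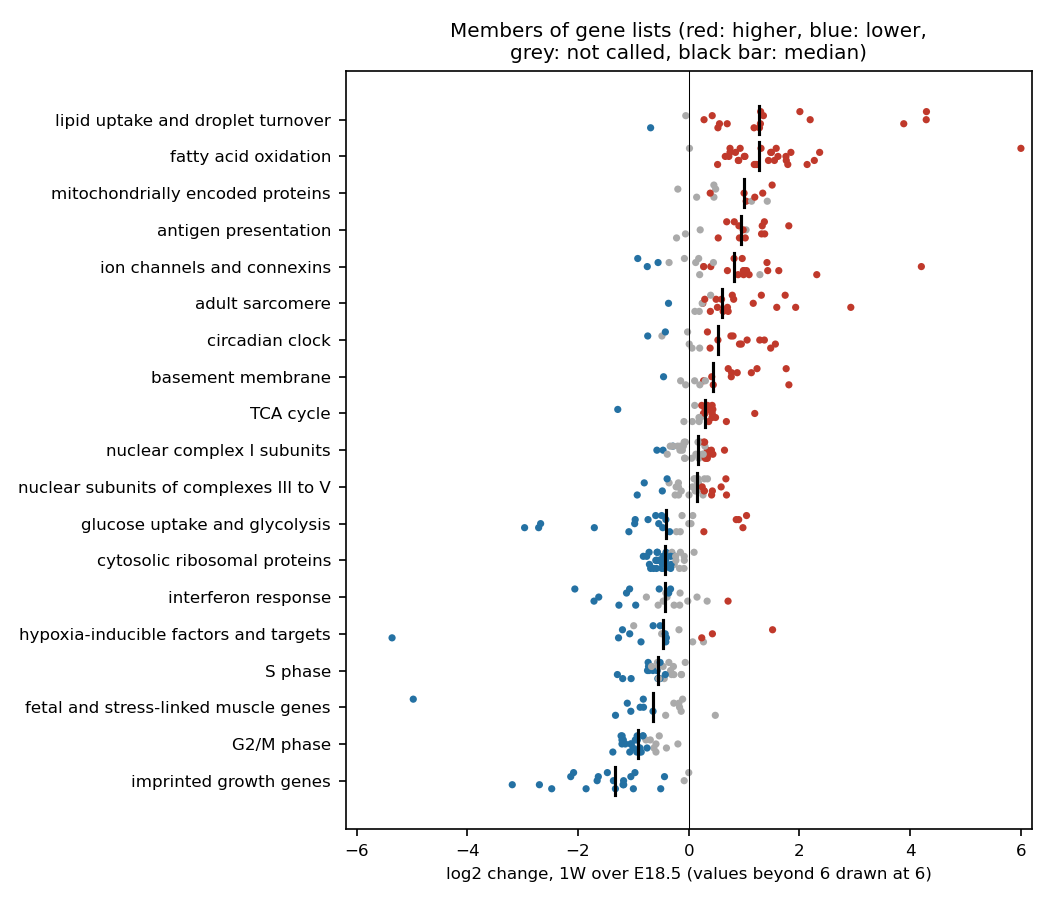
Log2 change of 1W over E18.5 for the tested members of 19 gene lists, ordered by their median (black bar), with members called higher in red, called lower in blue and not called in grey. The lipid lists have medians of 1.28 and 1.27 at the top and the imprinted genes have -1.32 at the bottom, while both lists of respiratory chain subunits lie near 0.

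Targets and regulators of the hypoxia response were mostly lower, 10 of 18, with 3 higher and a median log2 change of -0.46, and with library size alone 13 were lower and 1 higher. Besides Hif3a, Ak4, a mitochondrial adenylate kinase, had 19.5, 18.6 and 17.4 CPM at 1W, against 45.2, 44.2 and 44.2 CPM at E18.5 (-1.27 ± 0.09). Bnip3, which drives removal of mitochondria, had 42.5, 37.6 and 33.9 CPM at 1W, against 96.9, 83.8 and 80.7 CPM at E18.5 (-1.20 ± 0.16), and the oxygen sensor gene Egln3 fell (-1.07 ± 0.12). Epas1, the factor subunit abundant in endothelium, went the other way, with 185, 207 and 202 CPM at 1W, against 69.8, 67.6 and 70.6 CPM at E18.5 (1.51 ± 0.08). The 2 ages did not overlap for any of these 4 genes.

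Regulators of metabolism were called higher for 9 of 18 and lower for 1, or 7 and 3 with library size alone. The 9 rises included Rxrg, Mlxipl, a glucose-sensing factor (2.20 ± 0.26), Perm1, a muscle partner of the oestrogen-related receptors (1.30 ± 0.10), Esrrb (0.999 ± 0.15) and the coactivator gene Ppargc1b (0.85 ± 0.10). Perm1 had 156, 171 and 149 CPM at 1W, against 64.1, 63.8 and 65.4 CPM at E18.5. The main lipid-sensing receptor Ppara was not called, with 28.7, 26.2 and 27.3 CPM at 1W, against 26.05, 22.8 and 23.2 CPM at E18.5 (0.19 ± 0.12, adjusted p = 0.236). Its coactivator Ppargc1a was not called either, with 118, 125 and 129.7 CPM at 1W, against 107, 114 and 121 CPM at E18.5 (0.12 ± 0.11). Both had the opposite sign with library size alone, at -0.03 and -0.10, and Ppara was called higher in a fit of the 6 libraries alone (adjusted p = 0.0234). Klf15, a factor that follows glucocorticoids, fell (-0.92 ± 0.14).

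Thyroid hormone and glucocorticoids both act on the heart around birth. On the joint list 8 of 18 genes were higher and 7 lower, or 5 and 8 with library size alone. Among the rises was Hr, a direct target of thyroid hormone, at 11.7, 11.1 and 11.1 CPM at 1W, against 1.43, 1.24 and 1.16 CPM at E18.5 (3.16 ± 0.23), and the receptor gene Thrb rose by 1.74 ± 0.24. The target Klf9, shared by both hormones, rose by 1.54 ± 0.11, and the glucocorticoid receptor gene Nr3c1 rose by 0.81 ± 0.08. Among classical glucocorticoid targets, Fkbp5 had 13.2, 11.7 and 13.7 CPM at 1W, against 31.8, 31.9 and 28.2 CPM at E18.5 (-1.25 ± 0.27), and the metallothionein Mt2 had 1.41, 0.805 and 1.48 CPM at 1W, against 5.23, 6.31 and 6.97 CPM at E18.5 (-2.32 ± 0.42). Both of these fell, with no overlap between the ages.

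Contractile proteins of the adult sarcomere rose for 17 of 22 members and fell for 1, with a median log2 change of 0.61. Xirp2, a protein of the intercalated disc and Z-line, had 98.97, 101.8 and 117 CPM at 1W, against 11.4, 12.4 and 17.9 CPM at E18.5 (2.93 ± 0.24). Myom2, an M-band protein, rose by 1.93 ± 0.16, and the oxygen store myoglobin, Mb, had 3657, 3993 and 3778 CPM at 1W, against 1214, 1094 and 1110.3 CPM at E18.5 (1.74 ± 0.13). The 1 fall was of Tnnt2, the cardiac troponin T (-0.37 ± 0.10). Of 15 fetal and stress-linked muscle genes 8 fell and none rose, with a median of -0.65. Beside Myh7 these were led by the fetal myosin Myh8 (-1.32 ± 0.17), the light chains Myl9 (-1.11 ± 0.12) and Myl4 (-1.05 ± 0.14), and Tnni1, the slow skeletal troponin I of the fetal heart. Tnni1 had 697, 684 and 612 CPM at 1W, against 1255, 1237 and 1173 CPM at E18.5 (-0.88 ± 0.15), and its replacement Tnni3 had 1645, 1819 and 1734 CPM at 1W, against 1256, 1212 and 1163 CPM at E18.5 (0.52 ± 0.08). Nppb, a natriuretic peptide gene used as a sign of wall stress, was not called and its libraries overlapped, with 49.3, 81.5 and 111 CPM at 1W, against 115, 88.8 and 119 CPM at E18.5.

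**Figure D4:**
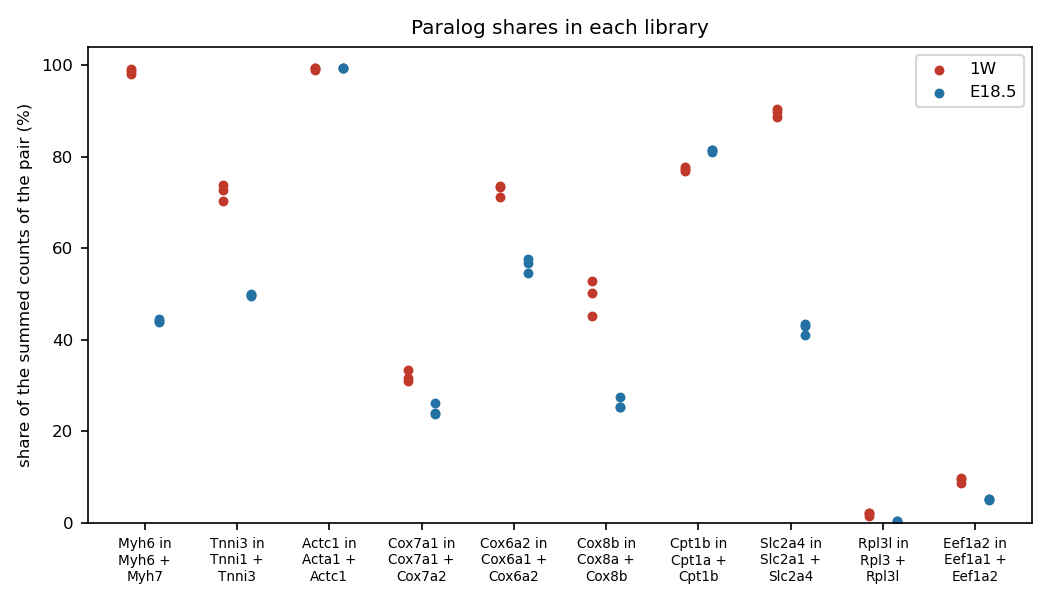
Share of 1 paralog in the summed counts of a pair, in percent, for 10 pairs and each library, with 1W in red left of E18.5 in blue. Myh6 took 98.0 to 99.3% of its pair at 1W and 43.9 to 44.5% at E18.5, Slc2a4 moved almost as far, and Actc1 overlapped between the ages.

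Shares within pairs of related genes need no scaling between libraries. Of 10 pairs compared, 9 had no overlap, and for these the 2-sided exact permutation p was 0.1, the smallest that 3 against 3 libraries allow, or 0.111 adjusted over the pairs. The share of Myh6 in Myh6 plus Myh7 was 98.7 ± 0.624% at 1W and 44.1 ± 0.315% at E18.5 (SD, n = 3 each). Slc2a4 made up 89.6 ± 0.794% of its pair with Slc2a1 at 1W and 42.5 ± 1.28% at E18.5. Tnni3 made up 72.3 ± 1.87% of its pair with Tnni1 at 1W and 49.8 ± 0.257% at E18.5. The 2 troponin genes were thus still mixed at 1W, when the myosin pair was not. Cox8b took 49.4 ± 3.95% of its pair at 1W and 26.0 ± 1.31% at E18.5, and Cox6a2 took 72.7 ± 1.31% at 1W and 56.3 ± 1.61% at E18.5. Rpl3l, a ribosomal protein of muscle, took 1.88 ± 0.277% of its pair with Rpl3 at 1W and 0.269 ± 0.0696% at E18.5, against 53.0 ± 1.83% at 8 weeks. Among the 9 pairs without overlap only the Cpt1b share of the carnitine palmitoyltransferases was lower at 1W, at 77.3 ± 0.485% at 1W, against 81.4 ± 0.316% at E18.5, with Cpt1a up by 1.58 ± 0.09 and Cpt1b up by 1.23 ± 0.09. The Actc1 share of the actin pair did not differ beyond its spread, at 99.3 ± 0.226% at 1W and 99.4 ± 0.0391% at E18.5 (exact permutation p = 0.7).

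Calcium handling genes rose for 13 of 24 and fell for 7, or 8 and 9 with library size alone. Hrc, a calcium-binding protein of the sarcoplasmic reticulum, had 266, 277 and 271 CPM at 1W, against 117, 105 and 117 CPM at E18.5 (1.27 ± 0.17). Atp2a2, the pump that refills the reticulum, had 9395, 9508 and 8264 CPM at 1W, against 4088, 3878 and 3950.1 CPM at E18.5 (1.19 ± 0.12). Its brake Pln rose by 0.91 ± 0.10 and the release channel gene Ryr2 by 0.93 ± 0.12. Casq1, the skeletal muscle calsequestrin, had 19.9, 24.4 and 21.6 CPM at 1W, against 84.7, 82.2 and 75.2 CPM at E18.5 (-1.88 ± 0.22), and Sln, a second brake found in atria, fell (-0.80 ± 0.15). Without 1W replicate 3, 4 members were called lower. Genes of caveolae and transverse tubules, the membrane folds that carry excitation inward, rose for 6 of 8 and fell for none, led by Tcap (1.31 ± 0.10), Mtm1 (1.20 ± 0.13) and Dysf (1.08 ± 0.10).

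Ion channel and connexin genes rose for 16 of 27 and fell for 3, with a median log2 change of 0.82. Kcnk3, a background potassium channel, had 85.5, 92.2 and 76.7 CPM at 1W, against 27.8, 25.98 and 28.7 CPM at E18.5 (1.63 ± 0.11). Kcne1, an accessory subunit of potassium channels, had 149.96, 162 and 143 CPM at 1W, against 56.3, 59.1 and 55.1 CPM at E18.5 (1.41 ± 0.10). Neither gene overlapped between the ages. Gja5, the connexin of atria and conduction tissue, fell to 51.7, 42.7 and 45.3 CPM at 1W, against 90.4, 91.4 and 82.8 CPM at E18.5 (-0.92 ± 0.15), and the pacemaker channel gene Hcn4 fell (-0.55 ± 0.19), a call that ended without 1W replicate 3 or E18.5 replicate 1 or 3 (adjusted p up to 0.0944). Of 15 genes of adrenergic and muscarinic signalling 9 rose and 1 fell. Adra1b, an alpha receptor, rose by 1.75 ± 0.13, and the main cardiac beta receptor Adrb1 had 18.8, 17.1 and 15.1 CPM at 1W, against 7.64, 8.16 and 9.88 CPM at E18.5 (0.99 ± 0.19). Of 12 natriuretic and renin-angiotensin genes 5 rose and 4 fell. Nppa, the atrial peptide, had 568, 601 and 602 CPM at 1W, against 1103, 1039 and 986 CPM at E18.5 (-0.82 ± 0.12), while the receptor gene Npr1 rose by 0.96 ± 0.09 and Ace by 1.10 ± 0.20.

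Genes of DNA replication and mitosis were lower at 1W. Of 30 genes of G2 and mitosis 22 fell and none rose, with a median log2 change of -0.91, and of 29 genes of S phase 14 fell and none rose, with a median of -0.56. Ect2, which drives the cleavage furrow, had 16.2, 15.97 and 19.05 CPM at 1W, against 41.6, 44.1 and 46.9 CPM at E18.5 (-1.37 ± 0.16, adjusted p = 1.47e-07). Ube2c, which helps to destroy mitotic cyclins, had 16.97, 22.4 and 23.2 CPM at 1W, against 51.05, 49.3 and 46.03 CPM at E18.5 (-1.22 ± 0.32). Birc5, of the chromosomal passenger complex, fell (-1.21 ± 0.23). Every library at 1W was below every library at E18.5 for these 3 genes. The proliferation marker Mki67 was not called, with 105, 118 and 137 CPM at 1W, against 157, 188 and 198 CPM at E18.5 (-0.59 ± 0.30, adjusted p = 0.1305). It was called lower in a fit of the 6 libraries alone (adjusted p = 0.0104), in which 30 G2 and mitosis genes and 26 S phase genes were lower. The counts also leaned on single libraries. Without 1W replicate 1, 13 mitotic and 7 S phase genes were called, and the S phase count was 8 without 1W replicate 2 and 9 without E18.5 replicate 1.

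In S phase, Ccne2, a cyclin that starts replication, had 9.02, 12.2 and 12.3 CPM at 1W, against 27.4, 26.1 and 28.6 CPM at E18.5 (-1.29 ± 0.25), and the replication gene Gins1 fell (-1.19 ± 0.17). Rrm1, of ribonucleotide reductase, had 129.8, 135 and 145 CPM at 1W, against 246, 218 and 219.7 CPM at E18.5 (-0.73 ± 0.20). Promoters of mitotic genes commonly hold the cell cycle homology region TTTGAA and CCAAT boxes, and those of replication genes the E2F site TTTNNCGC. In windows from 250 bases before to 50 after each start (RefSeq, GRCm38.p6, both strands), TTTGAA stood in 76.9% of 26 windows of 24 matched G2 and mitosis genes, in 11.5% of 26 windows of 23 matched S phase genes and in 17.9% of all 32851 windows. TTTNNCGC stood in 11.5% of the G2 and mitosis windows, 46.2% of the S phase windows and 5.17% of all windows. CCAAT stood in 84.6%, 73.1% and 37.4%. The 250 bases before the start are shown for the 2 mitotic genes named above with the largest falls, with TTTGAA and CCAAT matches on either strand in capitals, and for Mcm6, a replication helicase subunit with E2F matches in capitals, chosen after its values were seen.
Ect2, chr3:27153855-27154104, minus strand: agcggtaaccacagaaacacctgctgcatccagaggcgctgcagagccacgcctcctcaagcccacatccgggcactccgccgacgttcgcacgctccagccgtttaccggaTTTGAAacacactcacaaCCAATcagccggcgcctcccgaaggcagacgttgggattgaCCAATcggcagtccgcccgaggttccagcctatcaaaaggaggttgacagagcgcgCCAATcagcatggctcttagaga
Ube2c, chr2:164769679-164769928, plus strand: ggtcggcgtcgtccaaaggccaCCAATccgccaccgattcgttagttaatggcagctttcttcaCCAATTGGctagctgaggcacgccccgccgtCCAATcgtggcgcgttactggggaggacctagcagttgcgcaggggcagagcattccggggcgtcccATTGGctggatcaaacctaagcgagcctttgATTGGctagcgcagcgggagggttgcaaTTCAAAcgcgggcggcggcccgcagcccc
Mcm6, chr1:128359706-128359955, minus strand: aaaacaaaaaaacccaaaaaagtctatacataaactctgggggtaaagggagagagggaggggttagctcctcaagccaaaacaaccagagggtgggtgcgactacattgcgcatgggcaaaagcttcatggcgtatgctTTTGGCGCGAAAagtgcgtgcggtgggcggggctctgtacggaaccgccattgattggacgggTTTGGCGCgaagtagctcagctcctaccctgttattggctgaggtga
Mcm6 had 79.1, 84.9 and 87.96 CPM at 1W, against 146, 126 and 123 CPM at E18.5 (-0.65 ± 0.23, adjusted p = 0.0297), and that call ended in 5 of the 6 fits that left out 1 library, with adjusted p up to 0.0979. A match is a string of letters and not a shown binding site. Of 16 G1 cyclins, inhibitors and pocket proteins 5 rose and 4 fell, with a median of 0.09, and with library size alone none rose and 6 fell, with a median of -0.13. Without E18.5 replicate 1 or 2, 3 rose. The inhibitor Cdkn1a rose by 0.65 ± 0.18, a call that ended with library size alone (adjusted p = 0.0587), the cyclin Ccnd3 fell (-0.73 ± 0.08), and Cdkn1c, which is imprinted, fell most.

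Imprinted genes, read from 1 parental copy and rich in regulators of fetal growth, were lower almost throughout. Of 21 tested 19 fell and none rose, with a median log2 change of -1.32. Dlk1, a growth factor read from the paternal copy, had 3.92, 4.78 and 4.297 CPM at 1W, against 38.98, 41.4 and 38.2 CPM at E18.5 (-3.19 ± 0.16, adjusted p = 1.99e-16). The noncoding H19 had 780.2, 815 and 868 CPM at 1W, against 3791, 3604 and 3403 CPM at E18.5 (-2.13 ± 0.10), and its neighbour Igf2, the fetal growth factor, had 453, 521 and 491 CPM at 1W, against 1310.4, 1334 and 1415 CPM at E18.5 (-1.47 ± 0.10). Cdkn1c had 23.3, 24.9 and 24.3 CPM at 1W, against 91.6, 86.8 and 83.9 CPM at E18.5 (-1.85 ± 0.15). Genes of opposite effect on growth, such as Igf2 and its clearing receptor Igf2r (-1.001 ± 0.11), both fell. The maternally silenced Sgce was not called, except lower with library size alone (-0.30, adjusted p = 0.00489), and the other member, which passed the filter through other ages, had no count in these 6 libraries. The count of 19 was the same in each of the 6 fits that left out 1 library.

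Other genes of the fetal programme fell as well, 7 of 10 on the list of oncofetal RNA-binding and Hmga genes. Igf2bp1, which stabilises Igf2 and Myc messages, had 4.19, 4.38 and 4.41 CPM at 1W, against 40.3, 39.7 and 39.3 CPM at E18.5 (-3.20 ± 0.12, adjusted p = 2.62e-19). Its relatives Igf2bp3 (-1.45 ± 0.12) and Igf2bp2 (-1.09 ± 0.09) fell less. On the list of the insulin-like growth factor axis 6 of 14 rose and 5 fell, or 3 and 6 with library size alone, with Igfbp7 higher (1.70 ± 0.13) and Igfbp2 (-2.28 ± 0.20) and Igfbp3 (-1.42 ± 0.20) lower, and 4 rose without 1W replicate 2. Of 39 cytosolic ribosomal proteins 27 fell and none rose, with a median of -0.43, and Rpl23 had 145, 155 and 151 CPM at 1W, against 262, 255 and 247 CPM at E18.5 (-0.76 ± 0.09). These genes have many processed copies in the genome, so their counts are uncertain.

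Matrix genes rose for 20 of 34 and fell for 7, and basement membrane genes rose for 11 of 17 and fell for 1. With library size alone 13 matrix genes rose and 8 fell, and 8 basement membrane genes rose and 3 fell. Col15a1, a collagen beside the basement membrane of muscle and capillaries, had 549, 599.98 and 590.1 CPM at 1W, against 174, 165 and 157 CPM at E18.5 (1.81 ± 0.13). Col3a1, the collagen of pliable fibres, had 6369, 6523 and 6340.4 CPM at 1W, against 3390.2, 3336 and 3152 CPM at E18.5 (0.96 ± 0.10). Lama2, the laminin chain of muscle, rose by 1.23 ± 0.07 and the paired collagen genes Col4a3 and Col4a4 by 1.76 ± 0.18 and 1.81 ± 0.14. Among the 7 falls were Col12a1 (-1.23 ± 0.12) and Fbn2 (-1.06 ± 0.10). Col1a1 rose by 0.47 ± 0.13, a call that ended with library size alone (adjusted p = 0.182).

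Markers of stromal and vascular cells followed. Of 12 fibroblast markers 8 rose and none fell, with Islr (1.02 ± 0.14) and Lum (0.95 ± 0.12) at the top, and Postn was not called. Of 12 blood endothelial markers 11 rose and 1 fell. Cldn5, a tight junction protein, had 35.3, 34.7 and 31.8 CPM at 1W, against 13.6, 12.6 and 11.3 CPM at E18.5 (1.44 ± 0.15), while Emcn fell (-0.51 ± 0.10). Of 10 pericyte and smooth muscle markers 5 rose and 2 fell. Rgs5, of pericytes, had 402, 390.4 and 397 CPM at 1W, against 103, 146 and 95.7 CPM at E18.5 (1.79 ± 0.11). Cnn1, a smooth muscle gene, had 12.2, 12.7 and 13.05 CPM at 1W, against 62.9, 60.96 and 49.4 CPM at E18.5 (-2.19 ± 0.11). Epicardial markers fell for 6 of 9 and rose for 1, with Upk3b down (-1.09 ± 0.16) and the retinoic acid enzyme Aldh1a2 up by 1.46 ± 0.20. Endocardial and valve markers fell for 4 of 8, with Plvap at -1.46 ± 0.11 and Npr3 at -1.28 ± 0.14. Lymphatic markers fell for 3 of 7 and rose for 1, with Lyve1 at -1.65 ± 0.15 and Prox1, also a muscle gene, at 0.59 ± 0.11. Atrial markers fell for 5 of 9 and none rose, with Myl7 at -0.82 ± 0.13. Cardiomyocyte markers rose for 5 of 10 and fell for 2, or 1 when any 1 library but 1W replicate 2 was left out.

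Of 29 transcription factors of the heart, 7 rose and 13 fell, or 2 and 17 with library size alone. Hey2, a Notch target of compact ventricular muscle, had 15.6, 14.99 and 12.3 CPM at 1W, against 53.5, 60.9 and 57.2 CPM at E18.5 (-2.002 ± 0.11). Irx3, a factor of the conduction system, had 23.8, 25.6 and 23.3 CPM at 1W, against 10.6, 10.9 and 10.1 CPM at E18.5 (1.20 ± 0.17). The splicing regulator Rbfox1 had 16.6, 13.8 and 13.03 CPM at 1W, against 2.55, 3.69 and 2.99 CPM at E18.5 (2.22 ± 0.20), and 5 of 12 splicing regulators rose and none fell, while with library size alone 1 rose and 3 fell. The polycomb enzyme Ezh2 fell (-0.55 ± 0.08).

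Immune cell markers moved both ways. Of 13 macrophage markers 6 rose and 1 fell, or none fell without 1W replicate 1 or 3 or E18.5 replicate 2, with Csf1r at 45.0, 46.9 and 44.2 CPM at 1W, against 29.3, 28.8 and 25.2 CPM at E18.5 (0.71 ± 0.09). Of 16 antigen presentation genes 12 rose and none fell, with a median log2 change of 0.95, with Tap2 (1.37 ± 0.15) and H2-T23 (1.02 ± 0.19) among them. Interferon response genes went the other way, 10 of 22 lower and 1 higher, with Oasl2 at 6.18, 4.68 and 3.89 CPM at 1W, against 13.3, 12.5 and 9.43 CPM at E18.5 (-1.26 ± 0.19). Mast cell markers fell for 3 of 4 and rose for 1, with Cpa3 at -1.55 ± 0.29. Lymphocyte markers rose for 4 of 6 tested, at summed levels of 2.81 to 3.85 CPM at 1W and 0.767 to 1.49 CPM at E18.5. Granulocyte markers rose for 3 of 8 tested, none without E18.5 replicate 2 and 1 without 1W replicate 2 or 3 or E18.5 replicate 3, and 1 fell, none without 1W replicate 3. They summed to 7.23 to 10.2 CPM at 1W and 2.60 to 4.81 CPM at E18.5.

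Markers of blood, liver and nerve varied among libraries of the same age at E18.5. Erythroid markers summed to 3141 to 3578 CPM at 1W and 2543 to 6832 CPM at E18.5, highest in E18.5 replicate 3. Of these markers 3 of 12 were called higher (1 with library size alone) and none lower, where 19.1% of all genes tested were called higher and 18.1% lower. None of the 5 platelet markers was called. Liver markers summed to 1.16 to 1.63 CPM at 1W and 2.22 to 14.5 CPM at E18.5, with 3 of 6 tested lower and a median log2 change of -3.48. In a fit of the 6 libraries alone none was called lower and the median was 0.43. Alb, albumin, had 0.662, 0.0251 and 0.0224 CPM at 1W, against 5.54, 0.963 and 9.003 CPM at E18.5, and its call ended without 1W replicate 2 or 3 or E18.5 replicate 3 (adjusted p up to 0.0784), and in the fits of the 6 libraries alone (adjusted p 0.0636 to 0.116), while without 1W replicate 1 its log2 change was -7.55. Nerve and Schwann cell markers fell for 4 of 12 at sums of 16.3 to 19.02 CPM at 1W and 20.8 to 32.5 CPM at E18.5, and 2 fell without E18.5 replicate 2. Skeletal muscle markers fell for 5 of 8 tested, at 3.60 to 4.14 CPM at 1W and 8.30 to 10.9 CPM at E18.5. The part of such tissue in the results was not tested.

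Values at P1 are given step by step, and each step shares samples with the comparison above. All 3 libraries at P1 held Y-linked transcripts with no sign of the inactive X, against 1 of 3 at 1W and 1 of 3 at E18.5. The part of this unequal mix in the steps was not tested. In the same fit 38.8% of genes were called for P1 against E18.5 (19.8% higher and 19% lower at P1) and 35.8% for 1W against P1 (18.8% higher and 17% lower at 1W). Pdk4 had 418 ± 99.8 CPM at P1 (SD, n = 3), and its log2 change was 3.70 ± 0.21 for P1 over E18.5 and -0.01 ± 0.19 for 1W over P1. Slc16a3 had 6.13 ± 0.591 CPM, with -3.30 ± 0.15 and 0.33 ± 0.15. Neither gene was called between 1W and P1. Myh7 had 10936 ± 1829 CPM, with -0.74 ± 0.21 for P1 over E18.5 and -4.24 ± 0.24 for 1W over P1, so most of its fall on the log2 scale lay in the second step. Ect2 had 12.4 ± 1.03 CPM, below both ages, with -1.84 ± 0.17 and 0.46 ± 0.17. Fkbp5 had 56.1 ± 27.7 CPM, on average above both ages, with 0.87 ± 0.26 and -2.12 ± 0.27, and the 3 libraries at P1 were widely spread.

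**Figure D5:**
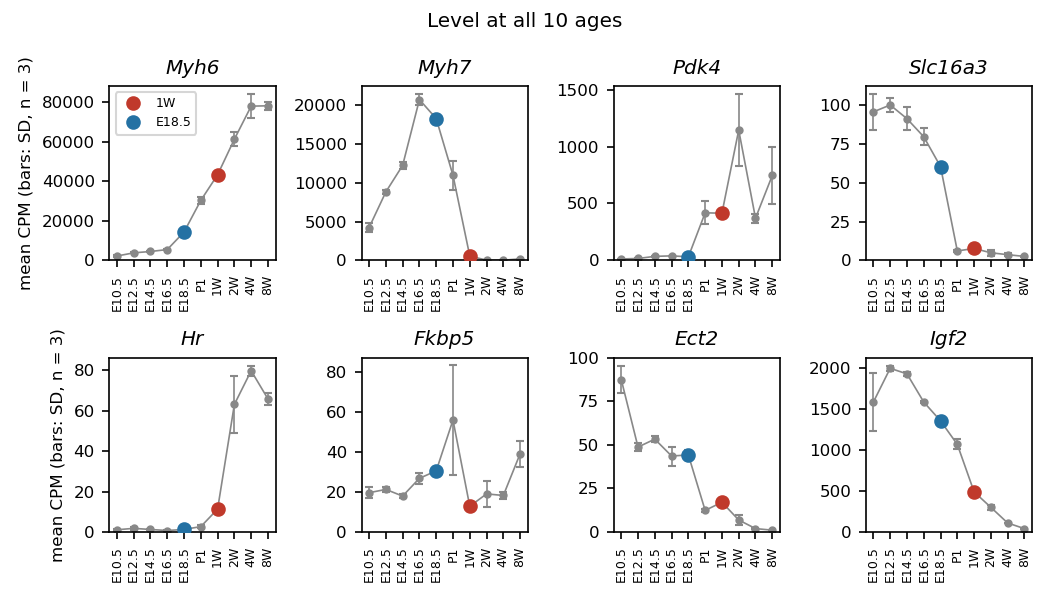
Mean CPM with SD bars (n = 3) of 8 genes at the 10 ages in time order, with 1W marked in red and E18.5 in blue. Pdk4 and Slc16a3 were near their level at 1W by P1, Ect2 was lower at P1 than at either, and Myh6 was still higher at 2 and 4 weeks.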

How the data were processed

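The authors deposited 1 table of expected counts per gene for all 30 libraries. The submitters' processing notes list, with no roles given, STAR 2.5.3a, fastp 0.18.0, mm10 and GRCm38. No source used here names the counter, annotation or strand setting, so overlapping, antisense and paralogous genes are uncertain. The deposited expected counts (6.94% not whole, tolerance 1e-06) were rounded. Symbols came from GENCODE M21 (48144 of 48820 identifiers), and unnamed genes held 0.225% of counts.

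Genes passing filterByExpr were scaled by TMM and tested in edgeR 4.0.16 (R 4.3.3), with robust quasi-likelihood F tests, and p-values were adjusted by the Benjamini-Hochberg method. The fit took all 30 libraries as 10 group means (20 residual degrees of freedom). P1 and the other ages thus entered the filter, the scaling and the estimate of spread, but not the contrast. SE was taken from the log2 change and its F value. In simulated data (18464 genes tested) each gene had the same mean share of counts at all ages. Only 67, 67 and 66 genes were changed 1.5-fold, 2-fold and 4-fold at 1W, in random directions. The fit called 62.7%, 82.1% and 95.5% of them, with 3 false calls among 18264 unchanged genes. Far fewer genes changed than in the real data, and all other genes kept 1 level over the ages, so these rates may not carry over. Replicates differed beyond sampling noise (chi-square per degree of freedom 13.2 to 19.5).

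Named were the 12 largest rises and falls among called genes with at least 10 CPM and no overlap, gene models and clone names left out. Also named were up to 6 called members of each list with at least 5 CPM, a gene panel, the paralogs and abundant cell type markers. Acacb, Cd36, Echs1, Emcn, G0s2, Gja5, Hcn4, Ldha, Mcm6, Myh7b, Nr3c1, Per1, Sftpb and Sgce lie outside that rule and were chosen after their values were seen. Some genes that the rule names are not reported here. Members and lists were chosen with earlier results of these data known. Intervals and floors cover counting error only.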

Additional observations from a re-analysis of the deposited data

How the results depend on the processing

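Across DESeq2 1.42.0, other scalings and filters, protein-coding genes alone, a sex term and fits of the 6 libraries alone, 6567 to 8979 genes were called. Library size alone gave 1935 higher (22.8% of calls) and 6560 lower, and 1807 at least 2-fold lower, where the TMM scaling gave 51.3% higher. Library size alone also turned Ppara (-0.0300), Ppargc1a (-0.10), Postn (-0.16), Cox6a2 (-0.11) and Actc1 (-0.0325), so the sign of these changes depends on the scaling. Cdkn1a kept its sign (0.425), but its call ended (adjusted p = 0.0587). Echs1, with no clear sign, was -0.209 with library size alone, -0.0230 for protein-coding genes alone, -0.00281 with a stricter filter, -0.0350 with upper quartile factors, and -0.0289 to 0.0624 with 1 library left out. Leaving out 1 library gave 5891 to 6345 calls. Leaving out single libraries gave differences in the Actc1 share between -0.212 and 0.00245 percentage points. Replicate numbers did not pair the samples (correlations -0.0646, -0.0484 and 0.0654), and a replicate block gave 7344 calls, or 9134 in the 6 libraries alone. The sex term within the 6 libraries, 8833 calls, was chosen after seeing the data. Fbp2 had 3 counts at E18.5, so counting error alone leaves its ratio between 167 and 2373.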

Other observations

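Clock genes were mostly higher at 1W, 12 of 19, with 2 lower and a median log2 change of 0.53. Nr1d1, a repressor of the clock loop, had 17.7, 19.1 and 17.4 CPM at 1W, against 6.49, 5.41 and 6.49 CPM at E18.5 (1.56 ± 0.17). Per3 rose by 1.48 ± 0.11 and the output factor Dbp by 1.37 ± 0.15, while Per1 fell (-0.74 ± 0.12). The lower count was 1 without 1W replicate 1 or 2 or E18.5 replicate 2, and 3 without 1W replicate 3. The hour at which hearts were taken was not among the labels, and its part in these values was not tested. Of 21 antioxidant enzymes 9 rose and 2 fell (1 when any 1 library was left out), with a median of 0.15, while with library size alone 4 rose and 5 fell, with a median of -0.07. Among the rises was Cat, the peroxisomal catalase, which had 134, 143 and 143 CPM at 1W, against 64.96, 67.9 and 67.3 CPM at E18.5 (1.07 ± 0.07), and 6 rose without 1W replicate 2. Of 18 genes of branched-chain amino acid breakdown 5 rose and 9 fell, or 2 and 11 with library size alone, with the paired dehydrogenase subunits Bckdha at 0.85 ± 0.11 and Bckdhb at -1.02 ± 0.12, and 6 fell without 1W replicate 3 or without E18.5 replicate 1. Muscle-type mitochondrial creatine kinase, Ckmt2, had 358, 368 and 335 CPM at 1W, against 97.7, 96.8 and 86.4 CPM at E18.5 (1.92 ± 0.13), and the brain type Ckb fell (-0.55 ± 0.15).

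Over all genes tested 19.1% were called higher and 18.1% lower. Of 567 long intergenic noncoding genes tested 35 rose and 95 fell, with a median log2 change of -0.27. Of 741 antisense genes 40 rose and 92 fell (median -0.24), of 551 processed pseudogenes 5 rose and 49 fell (median -0.36), of 135 sense intronic genes 3 rose and 19 fell (median -0.33), and of 1280 gene models of the TEC class 20 rose and 233 fell (median -0.38). Of 15249 protein-coding genes 3494 rose and 2902 fell, with a median of 0.00.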
